A study of Equus caballus with 13 samples.

Results

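The genes described here are inhibitors of the cell cycle and the regulators of p53 that act with them: MDM2, MDM4, CDKN1A, CDKN1B, CDKN1C, CDKN2B, CDKN2C, GADD45A and RB1. They were chosen by symbol from 2 tables of RNA kinetics of horse (Equus caballus) chondrocytes, the cells of cartilage. Of the 9 genes, 7 were listed in both tables, among 10974 genes common to both, while CDKN1B and CDKN2B were listed in neither and have no value below. One table compared synthesis rates and half-lives of old female against young female cells (11056 genes, here the age table), and the other those of young male against young female cells (11249 genes, here the sex table). There were 5 old female, 5 young female and 3 young male samples, all labelled wild type (WT), with ages given only as old or young.

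Chondrocytes of every group had been released from cartilage, cultured for 2 days and labelled with 4-thiouridine (4sU), a uridine analogue that enters newly made RNA, for 4 h. The labels named no animals, so whether each sample came from its own horse was not given. Both tables used the same 5 young female samples, and each table held 1 value per gene and group, so no spread between samples, no test and no depth can be given. A difference is therefore described by its size, as a log2 ratio within 1 table, and 2-fold (an absolute log2 ratio of at least 1) was used as the threshold. Batch and group cannot be told apart, since the 13 samples carried 12 batch labels, nearly 1 each. Batch 10, with 1 young female and 1 young male sample, was the only one that spanned groups.

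The p53 protein is a transcription factor that is activated by DNA damage and other stress. MDM2 is a ubiquitin ligase that marks p53 for destruction and is itself a p53 target gene, which closes a negative feedback loop, and MDM4 is its relative, which binds p53 and blocks its activity. CDKN1A (p21) is the p53 target that stops the cell cycle by inhibiting cyclin-dependent kinases (CDKs), and GADD45A is a stress-induced gene that p53 also activates. CDKN1B (p27) and CDKN1C (p57) belong to the same Cip/Kip family of CDK inhibitors, whereas CDKN2B (p15) and CDKN2C (p18) are INK4 proteins that act on CDK4 and CDK6 alone. RB1, the retinoblastoma protein, is kept inactive by these kinases and otherwise restrains E2F transcription factors. In cartilage, growth arrest through CDKN1C accompanies the maturation of chondrocytes, and CDKN1A is widely used as a marker of cellular senescence.

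The 10 chondrocyte markers on the list used were all listed in both tables, as were 4 of 7 fibroblast or synovial lining markers (PRG4, CD55 and HAS1 were listed in neither). Only CD14 of 5 macrophage markers and VWF of 4 endothelial markers were listed, and no T cell or blood marker was. The 2 listed osteoblast markers of 4 were IBSP and RUNX2. Bulk values cannot tell fewer cells of a type from less RNA per cell.

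The 7 transcripts spanned short and average half-lives. GADD45A, MDM4 and CDKN1A had half-lives of 1.13, 1.36 and 1.39 h in young female cells of the age table. MDM2 and RB1 followed with 2.19 and 2.80 h, and CDKN2C and CDKN1C had the longest half-lives, 3.81 and 5.49 h. The median of all genes in that column was 3.64 h, so 5 of the 7 were below it and CDKN2C lay close to it. Only 8.99% of genes had a shorter half-life than GADD45A, and 14.8% and 15.7% had a shorter one than MDM4 and CDKN1A.

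This order was nearly the same in each column of both tables. In old female cells GADD45A again had the shortest half-life, 0.931 h, and CDKN1C the longest, 4.02 h. In young male cells GADD45A was at 1.16 h, but CDKN2C, at 7.85 h, was above CDKN1C, at 6.35 h. CDKN1A and MDM4 stood next to each other in all columns, and their order switched between old female cells (1.16 and 1.19 h) and the other groups. MDM2 RNA was longer-lived than that of its relative MDM4 in every column, by 1.61-fold in young female and 1.34-fold in old female cells of the age table and by 2.27-fold in young male cells. No spread over samples is known, so whether neighbours in the order differ could not be judged. The plot of half-lives by group shows these values.

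**Figure D1:**
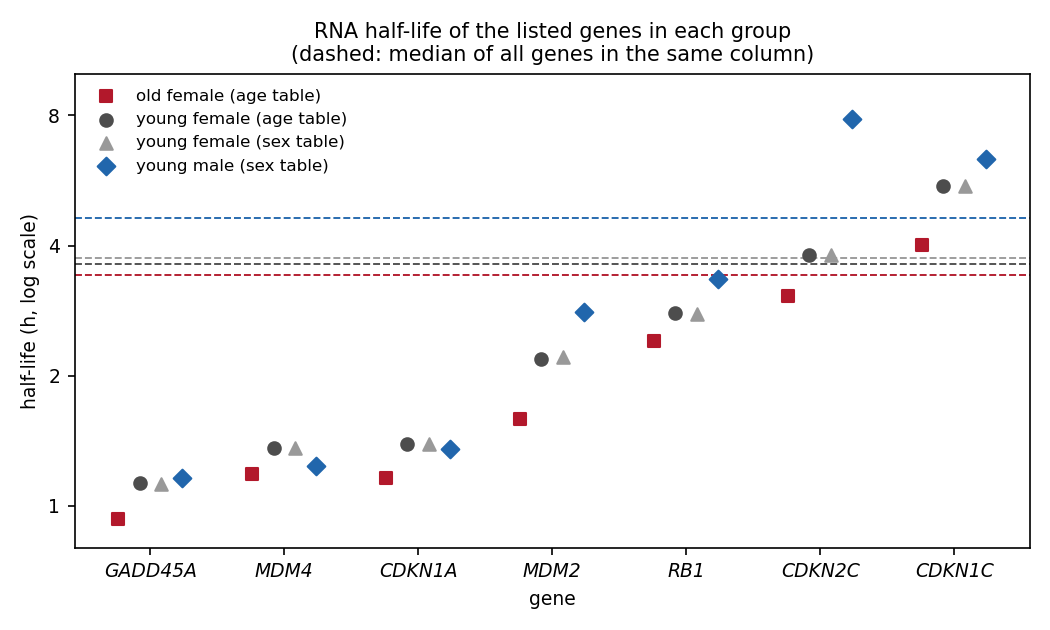
Half-life in hours (log scale) of the 7 listed genes, with 1 point for each group value in the deposited tables and young female cells shown once for each table; no error is known. Dashed lines are the medians of all genes in each column. Every red square (old female) lies below the dark circle (young female) of its gene, and CDKN2C in young male cells, at 7.85 h, stands highest.

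The half-lives can be read as the share of a transcript that was made within the 4 h of labelling, if decay is exponential and RNA levels are constant. In young female cells of the age table this share was 91.4% for GADD45A, 86.9% for MDM4, 86.3% for CDKN1A and 71.8% for MDM2. It was 62.8% for RB1, 51.7% for CDKN2C and 39.6% for CDKN1C. By this reading most GADD45A, MDM4 and CDKN1A RNA present at the end had been made during labelling, and for such transcripts a modest difference in half-life corresponds to a small difference in labelled share. For GADD45A in old female cells, the implied share was 94.9%, and its half-life there was under 1 h, below the range of 1 to 24 h taken as resolved by 4 h of labelling.

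The young female value was listed in both tables, which shows how far an estimate moved when the same samples were used with another group. For the 7 genes the 2 half-lives differed by at most 0.0152 log2 units (MDM2, 2.19 and 2.21 h). Synthesis rates were lower in the sex table by a near-constant factor, with a median of 0.956-fold over all genes, and departed from that offset by at most 0.0173 log2 units. Over the 9501 genes that both tables place within 1 to 24 h, 95% of deviations from the median were within 0.15 log2 units for half-life and for synthesis rate and within 0.00083 for implied level. The estimates of half-life and synthesis rate thus traded off against each other at a nearly fixed level. These deviations come from the same samples and hold none of the variation between them.

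The first comparison was between old and young female cells, and it asked how age was related to RNA kinetics. All 7 genes had a shorter half-life in old cells. Their median log2 ratio was −0.28, with a range from −0.46 to −0.20. A shorter half-life was also the majority state of the table, with 63.1% of all genes lower and a median of −0.08. Synthesis rates were higher for 5 of the 7, with a median of 0.19, against 60.2% of all genes and a median of 0.08. Within half-life deciles the synthesis median was 0.062, with 4 genes higher and 3 lower, and GADD45A turned to −0.097. Implied levels were lower for 4 of 7, against 49.3% of all genes. None of the 7 was past the 2-fold threshold for half-life, which 3.53% of all genes passed, nor for synthesis rate (7.52% of all genes). The implied level, in arbitrary units, is the product of half-life and synthesis rate over ln 2, the steady state that both would give if RNA levels were constant. Implied levels were past it for 0 of 7 (4.12% of all genes).

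Among the p53 regulators, MDM2 had a half-life of 2.19 h in young female and 1.59 h in old female cells. Its synthesis rate was 1544 in young and 2162 in old cells, in the arbitrary units of the table, which is 1.40-fold higher. These differences offset each other, and the implied level was 4873 in young and 4951 in old cells (log2 ratio 0.02). MDM4 had a similar pattern on a smaller scale. Its half-life was 1.36 h in young and 1.19 h in old cells, its synthesis rate 433 and 536, and its implied level 850.3 and 917 (log2 ratio 0.11).

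CDKN1A, the p21 gene, had a half-life of 1.39 h in young and 1.16 h in old cells, a log2 ratio of −0.26. Its synthesis rate was 7808 in young and 8911 in old cells, and its implied level was 15703 and 14953, a log2 ratio of −0.07. The RNA of this senescence marker was thus at nearly equal implied level in both female groups. GADD45A had a half-life of 1.13 h in young and 0.931 h in old cells, synthesis rates of 3779 and 4042, and implied levels of 6148 and 5431 (log2 ratio −0.18). For both genes a shorter half-life stood beside a higher synthesis rate, which for GADD45A was no longer higher within half-life deciles.

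CDKN1C had the largest difference in synthesis rate among the 7 genes, 34.0 in young and 58.0 in old cells, or 1.71-fold higher. With a pseudocount on synthesis rate its log2 ratio was 0.45, below that of MDM2 at 0.48. Of all genes, 92.6% had a lower synthesis ratio. Its half-life was 5.49 h in young and 4.02 h in old cells, and its implied level was 269 and 337, a log2 ratio of 0.32. In synthesis rate and level, though not in half-life, this Cip/Kip inhibitor differed in the direction opposite to the INK4 gene CDKN2C. For synthesis rate the CDKN2C log2 ratio was only −0.14.

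CDKN2C was the listed gene with the lowest level ratio. Its synthesis rate was 27.1 in young and 24.6 in old cells and its half-life 3.81 and 3.05 h, so that both parameters were lower. The log2 ratio of synthesis rate was small, −0.14, and −0.063 with a pseudocount. The implied level was 149 and 108 (log2 ratio −0.46). RB1 also had both parameters lower, with synthesis rates of 147 and 131, half-lives of 2.80 and 2.41 h and implied levels of 595 and 456 (log2 ratio −0.38). Of all genes, 8.38% had a lower level ratio than CDKN2C and 11.3% a lower one than RB1. CDKN2C and CDKN1C were in the lowest 25% of genes by mean synthesis rate in both tables.

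Half-life differences of the 7 genes were compared with those of genes of like stability by subtracting the median of the same half-life decile, ordered by young male half-life. After this, all 7 remained lower in old cells, with a median of −0.15. By construction, such centring puts about as many genes of a decile above 0 as below it. MDM4, RB1, GADD45A and CDKN1A, from −0.083 to −0.145, were within 0.15 log2 units. That is the limit that held 95% of deviations between the 2 young female half-lives. MDM2 and CDKN1C were the farthest from their deciles, at −0.39 and −0.37, and MDM4 the nearest, at −0.08. Of all genes, 10.5% had a lower half-life ratio than MDM2 and 11.1% a lower one than CDKN1C.

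**Figure D2:**
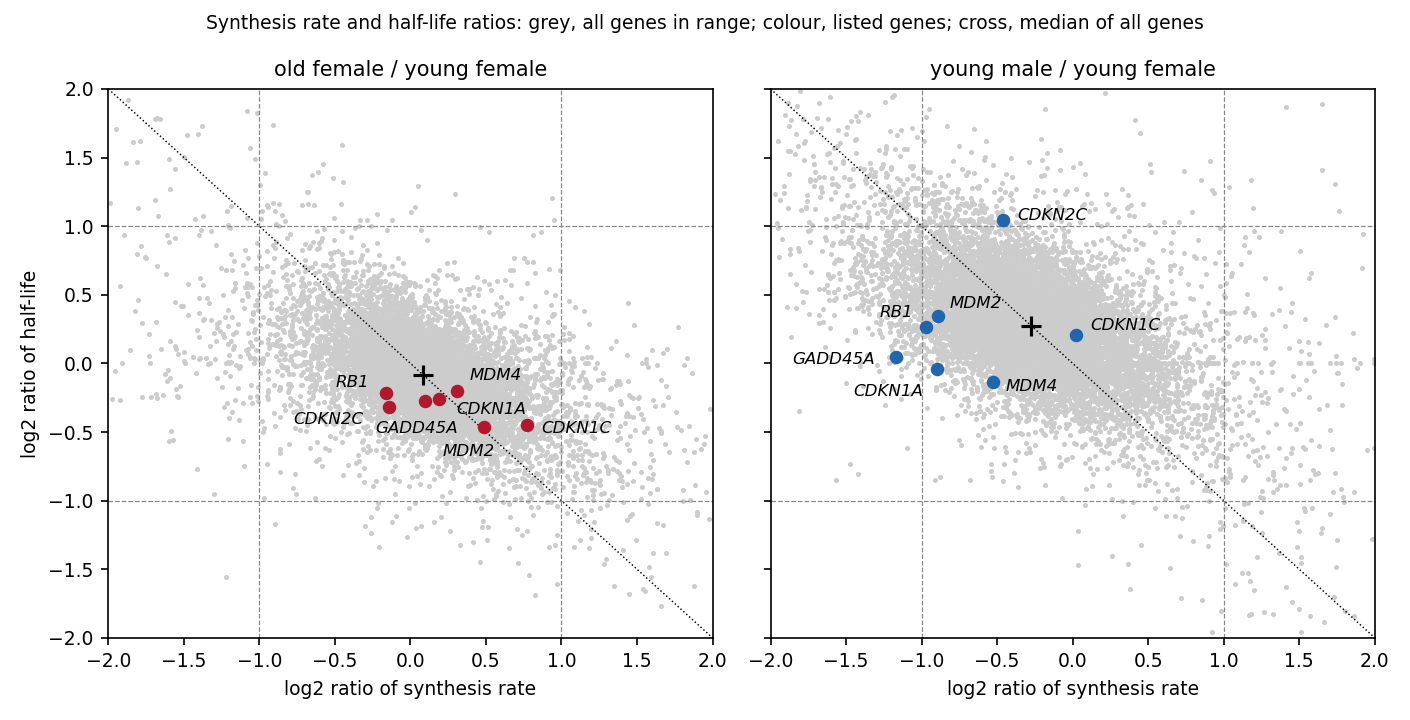
Log2 ratio of synthesis rate (horizontal) against log2 ratio of half-life (vertical) for old against young female cells (left) and young male against young female cells (right). Coloured points are the 7 listed genes, grey points all genes inside the plotted range (289 genes on the left and 334 on the right lie outside), crosses the medians of all genes, dashed lines the 2-fold threshold and dotted diagonals an equal implied level. On the left all 7 genes lie below 0 in half-life; on the right 6 of 7 lie left of 0 in synthesis rate, with GADD45A farthest left and CDKN2C just above 1 in half-life.

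The second comparison was between young male and young female cells, and it asked how sex was related to RNA kinetics. Synthesis rates were lower in male cells for 6 of the 7 genes, with a median log2 ratio of −0.90, while 71.1% of all genes were lower, with a median of −0.28. Implied levels were lower for 5 of 7, with a median of −0.67, against 49.5% of all genes and a median of 0.01. All 5 had a log2 level ratio of −0.5 or lower, which 12.0% of all genes had. GADD45A alone was at least 2-fold lower in synthesis rate, as were 8.37% of all genes, and in implied level, as were 1.61%. CDKN2C alone was at least 2-fold longer-lived, as were 5.62% of all genes. Half-lives were longer for 5 of 7, against 77.3% of all genes. Their median log2 ratio was 0.21 against 0.27 for all genes, and 5 of 7 were below the latter.

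GADD45A had a synthesis rate of 3615 in female and 1607 in male cells, a log2 ratio of −1.17. Its half-life was 1.13 h in female and 1.16 h in male cells, and its implied level was 5870 and 2689, or 2.18-fold lower in male cells. Only 0.933% of all genes had a lower level ratio. Relative to the shift of all genes the log2 ratio of synthesis rate was −0.89, under the threshold.

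CDKN1A had the next lowest level ratio. The synthesis rate of this CDK inhibitor was 7465 in female and 4004 in male cells (log2 ratio −0.90), its half-life was 1.39 and 1.35 h, and its implied level was 14983 and 7811, which is 1.92-fold lower. A lower level ratio was listed for 2.04% of all genes. With the young female value of the age table, which carries the offset between tables, the log2 level ratio was −1.01, past the threshold. Within half-life deciles the level ratio was −0.63. The synthesis ratio of CDKN1A was −0.62 centred on all genes and −0.50 within deciles. The log2 half-life ratios of these p53 target genes were 0.043 for GADD45A and −0.041 for CDKN1A. Relative to the longer half-lives of all genes in male cells they were −0.23 and −0.31, and relative to genes of the same half-life decile 0.057 and −0.12.

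MDM2 had a synthesis rate of 1458 in female and 784 in male cells (log2 ratio −0.90) and a half-life of 2.21 and 2.80 h (0.34). The implied level was 4649 and 3169, or 1.47-fold lower. Centred on all genes, the half-life ratio was 0.069 and the synthesis ratio −0.62, and within deciles they were 0.20 and −0.51. MDM4 differed in that its half-life was also shorter in male cells, 1.36 and 1.24 h, unlike the majority of genes. Its synthesis rate was 414 in female and 287 in male cells, and its implied level 812 and 511, or 1.59-fold lower. The synthesis ratio of MDM4 was −0.53, and −0.25 centred on all genes and −0.14 within deciles. Its half-life ratio was −0.14, and then −0.41 and −0.21.

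RB1 was also lower in synthesis rate in male cells. Its synthesis rate was 141 in female and 72.0 in male cells (log2 ratio −0.97), its half-life 2.78 and 3.34 h, and its implied level 567 and 347, or 1.63-fold lower. The half-life ratio of 0.26 was close to the shift of all genes, at −0.0095 after centring on it and 0.038 within deciles. With the young female value of the age table, its synthesis ratio was −1.03, past the threshold. The synthesis ratio was −0.69 centred on all genes, −0.57 within deciles and −0.75 with a pseudocount.

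The remaining CDK inhibitors were higher in implied level in male cells. CDKN2C, the INK4 gene, had a half-life of 3.81 h in female and 7.85 h in male cells, 2.06-fold longer, and 95.1% of all genes had a lower ratio. Its synthesis rate was 25.9 in female and 18.8 in male cells, and its implied level 142 and 213 (log2 ratio 0.58). Relative to the median of all genes the half-life ratio was 0.77, under the threshold. CDKN1C, the gene for p57, had nearly equal synthesis rates of 32.5 and 33.0, half-lives of 5.49 and 6.35 h and implied levels of 257 and 302 (log2 ratio 0.23). Its half-life ratio of 0.21 turned to −0.064 centred on all genes and −0.12 within deciles, and its synthesis ratio of 0.022 was then 0.30 and 0.36.

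Level ratios in the sex table varied with half-life across the whole table, and the 5 lower genes had half-lives below the median of all genes. In the 2 deciles with the shortest half-lives, ordered by old female half-life, 85.1% and 80.7% of genes were lower in male cells, with medians of −0.35 and −0.31. GADD45A was in the first of these and CDKN1A and MDM4 in the second, while MDM2 was in decile 3, RB1 in decile 4, CDKN2C in decile 5 and CDKN1C in decile 6. After subtraction of the decile medians the level ratios were −0.78 for GADD45A, −0.63 for CDKN1A, −0.53 for RB1, −0.36 for MDM4 and −0.32 for MDM2. The same 5 genes were still lower and 2 higher, and 0 of 7 were past the threshold. After this step about as many of all genes lie above 0 as below it, and the share past the threshold is not given.

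Cell type markers also differed in level between these groups. Of 10 chondrocyte markers, 9 were higher in male cells, with log2 level ratios from −0.08 to 2.00, and their summed implied level was 1.33 log2 units higher. Of the 4 listed fibroblast or synovial lining markers, 3 were higher, with log2 ratios from −0.21 to 4.19, and their sum was 1.00 higher. The 2 osteoblast markers were at 0.34 and 2.19, and their sum was 2.13 higher. CD14 and VWF had log2 level ratios of 0.15 and 0.04. In old cells the summed level of the chondrocyte markers had a log2 ratio of −0.13 to young female cells, with 5 markers higher and 5 lower, from −1.01 to 0.83. All 4 listed fibroblast markers were lower, from −2.86 to −0.14, with a ratio of −0.77 for their sum. The ratio was 0.77 for the sum of the osteoblast markers and 0.26 for each of CD14 and VWF. The part of such shifts in the values of the 7 genes was not tested.

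Other genes of the pathway were taken from lists. The wider p53 target list held 37 genes beside MDM2, CDKN1A and GADD45A, of which 30 were in the age table and 31 in the sex table. These were short-lived as well, with a median half-life of 1.71 h in young female cells of the age table, and 24 of 30 were below the median of all genes.

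Of the 30 other p53 targets, 25 had a shorter half-life in old cells (63.1% of all genes), and their median log2 ratio was −0.21. Synthesis rates were higher for 21 of 30 (60.2% of all genes), with a median of 0.14, and implied levels were lower for 19 (49.3%), with a median of −0.13. Within half-life deciles 22 of 30 had a shorter half-life, with a median of −0.12, and synthesis rates were above 0 for 16 and below for 14, with a median of 0.034. By construction, about as many of all genes lie above 0 as below it within deciles. The counts that follow are uncentred. For half-life 3 were past the threshold downward (2.06% of all genes), and for synthesis rate 4 were past it upward (4.59%). PLK2, a polo-like kinase, had a half-life of 3.47 h in young and 1.49 h in old cells and a level ratio of −0.96. TP53INP1, a p53-induced nuclear protein, had a synthesis rate 2.24-fold higher and a level ratio of 0.74. The others, named after their values were seen, were PPM1D, SERTAD1 and SESN2, with half-lives in old cells of 0.0868, 0.0269 and 0.666 h, below the resolved range. No gene of the list was past the threshold for implied level (4.12% of all genes).

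In male cells 27 of the 31 other p53 targets had a lower implied level (49.5% of all genes), with a median log2 ratio of −0.55, and 26 had a lower synthesis rate (71.1% of all genes), with a median of −0.63. After subtraction of the decile medians the level median was −0.23, and 25 of the 30 genes common to both tables were lower. By construction, this centring puts about as many of all genes above 0 as below it, so the uncentred shares do not apply to that count. Half-lives were longer for 18 of 31 (77.3% of all genes), with a median of 0.10 against 0.27 for all genes. For half-life 2 were past the threshold downward (1.96% of all genes), BBC3 and ZMAT3, named after their values were seen. For synthesis rate 7 were past it downward (8.37% of all genes) and 1 upward (3.78%). Within deciles 2 were past it downward and 1 upward, and the median was −0.32. The share of all genes past it within deciles is not given. The gene past it upward was BBC3, named after its value was seen, with a half-life of 0.486 h in male cells. ATF3, a stress-response transcription factor, had the lowest level ratio, −1.70 on the log2 scale, followed by PLK2 at −1.39. Beside GADD45A, these were the 2 of the list past the threshold for level, as were 1.61% of all genes downward. RRM2B, a subunit of the ribonucleotide reductase used in DNA repair, and TIGAR, a regulator of glycolysis, had level ratios of −0.92 and −0.91 and synthesis ratios of −1.28 and −1.21. The 4 genes that were higher, named after their values were seen, were TP53I13, CCNG1, FDXR and BAX, from 0.08 to 0.53. The plot of the p53 target list gives each ratio in both comparisons, which share their young female samples.

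**Figure D3:**
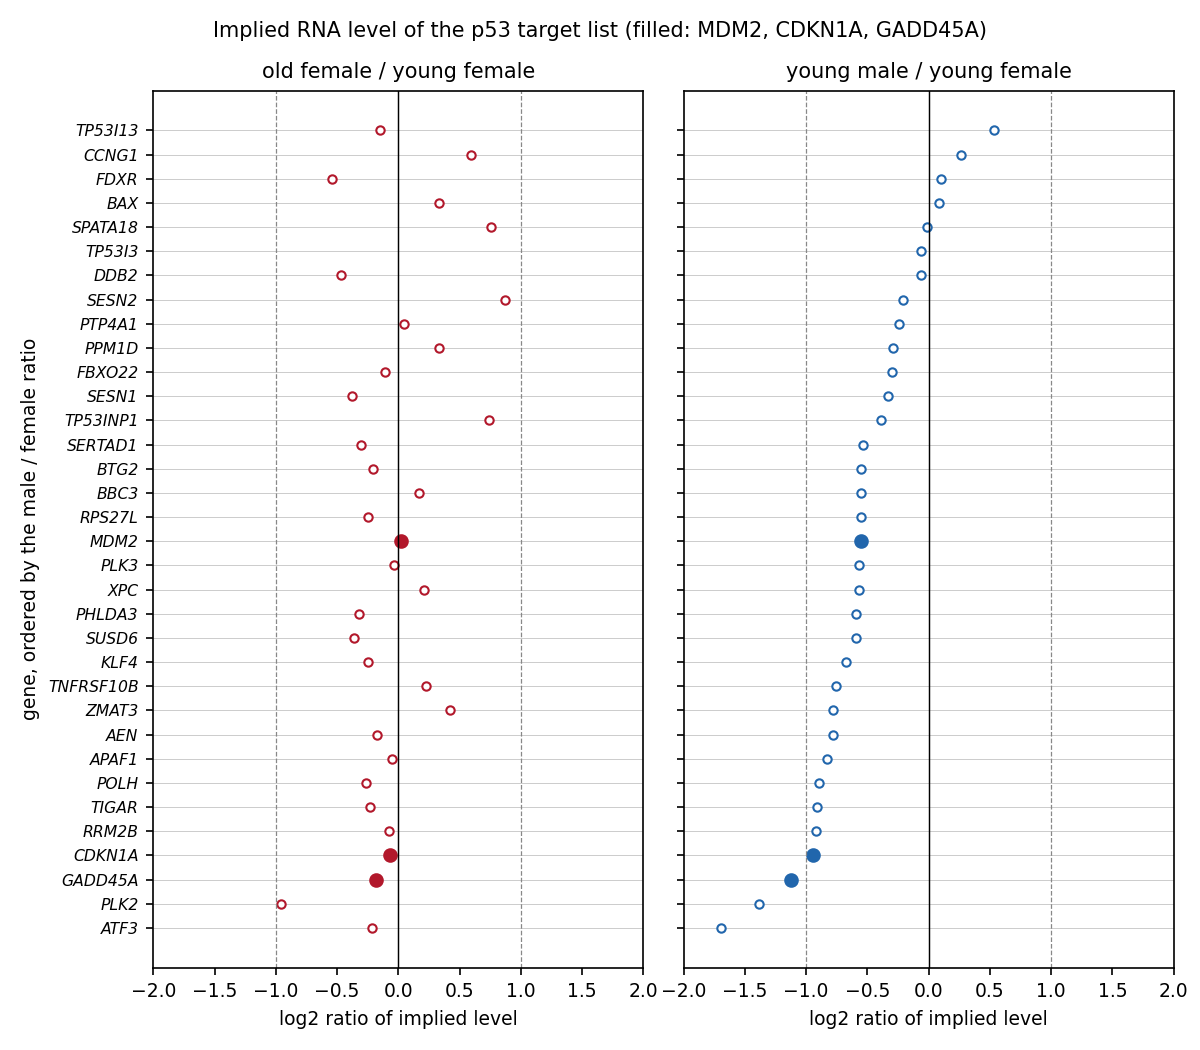
Log2 ratio of implied level for the genes of the p53 target list, for old against young female cells (left) and young male against young female cells (right). Each point is 1 gene (filled for MDM2, CDKN1A and GADD45A), genes are ordered by the right panel, dashed lines mark 2-fold, and TP53I3 was listed in the sex table only. On the right 30 of 34 points lie below 0; on the left 21 of 33 do.

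Lists of genes that control p53, the CDK inhibitors or their kinases were described in the same way, without centring within deciles. The p53 regulators and cofactors, 23 listed for age and 24 for sex, had median log2 level ratios of 0.03 and −0.18. Of these, 1 was past the threshold, RCHY1, a ubiquitin ligase of p53, with a synthesis ratio of −1.37 in male cells. Of all genes, 8.37% were at least 2-fold lower in synthesis rate there. Genes for the turnover of CDK inhibitors, 11 listed, had medians of −0.09 and −0.14. Cyclins and CDKs, 14 listed, had medians of −0.04 and 0.03. Cyclin D1 (CCND1), the partner of the kinases that INK4 proteins inhibit, had a synthesis rate of 1175 in young and 232 in old female cells and a level ratio of −2.17. Its half-life was similar, 3.72 and 4.18 h. Cyclin C (CCNC) had a half-life of 5.91 h in young female and 12.4 h in young male cells, with a level ratio of 0.16.

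The list of other CDK inhibitors and GADD45 genes held 6 listed genes, with median level ratios of −0.11 by age and −0.13 by sex. CDKN2AIP and GADD45GIP1, named after their values were seen, were on it by symbol and belong to neither group, as does CDKN2AIPNL. The medians therefore do not describe CDK inhibitors and GADD45 genes alone. CDKN2D, another INK4 gene named after its values were seen, had a log2 level ratio of 0.23 by age and 0.10 by sex. GADD45G had lower synthesis rates in both, at −1.05 (age) and −1.04 (sex) on the log2 scale, against the same young female samples. Its level ratios were −0.74 and −0.78. GADD45B, also named after its values were seen, had level ratios of −0.69 and −0.45. CDKN2AIPNL, which was on this list by its symbol and is not itself a CDK inhibitor, had a half-life of 10.1 h in young female and 22.2 h in young male cells at an equal level (log2 ratio 0.011). CDKN2A was listed in neither table.

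Of the RB family, E2F and DREAM genes, 13 were listed for age and 14 for sex, with median level ratios of 0.07 and −0.01. LIN9, a core subunit of the MuvB complex that controls cell-cycle genes, had a synthesis rate 2.12-fold higher in old cells. Of all genes, 4.59% were at least 2-fold higher there. Its rates were low, 24.3 in young and 51.5 in old cells, the former below the pseudocount of 31.8 used for the age table. In male cells MYBL2, a transcription factor that binds this complex, was 8.25-fold higher in implied level. MYBL2 was listed in the sex table only, so it has no value by age. Its synthesis rates were also low, 19.6 (female) and 65.4 (male), the former below the pseudocount of 29.1 used for the sex table. The share of all genes at least 2-fold higher in level by sex is not given. A list of senescence-associated genes, of which 9 of 16 were listed, had a median level ratio of 0.02 by age and one of 0.03 by sex. Beside secreted genes it held LMNB1, HMGB1 and HMGB2, named after their values were seen, which code for nuclear proteins. The medians were the values of LMNB1 by age and of HMGB1 by sex, so they do not describe secreted genes. MMP13, a collagen-degrading enzyme of that list, had a level 2.37-fold higher in male cells, again without a share of all genes to set beside it.

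The genes whose kinetics were most like those of MDM2 and CDKN1A were found by Euclidean distance over 6 log2 values, the synthesis rate and half-life in the 3 groups, among 10274 other genes with symbols. For MDM2 they were MORC2, MYO1E and PLEKHA1, at distances of 0.50, 0.54 and 0.59. For CDKN1A they were BRD2, KMT2E and ZNF395, at 0.52, 0.52 and 0.67. This measure includes the synthesis rate itself, whose scaling to gene length was not given. Over the 4 log2 ratios alone, a measure added after seeing the data, the genes most like CDKN1A were C14orf119, PPP4R3A and NAA25, none of them shared with the first set.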

How the data were processed

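RNA of 4sU-labelled chondrocytes was alkylated with iodoacetamide for 15 min and made into strand-specific poly(A) libraries, per the labels' protocols. The submitters' processing notes name cutadapt 4.5, STAR 2.5.3 and EquCab3.0. The kinetic model, the annotation, the gene filter and the way samples were combined are not given in the sources used here. The authors deposited group values of synthesis rate, in arbitrary units, and of half-life, per the file headers. Half-lives were read as hours, because values stopped at 69.3, a decay rate of 0.01 per h. The tables hold 0 other columns of values, so depth and precision per sample are unknown. "Young" in the age table was read as young female from the labels.

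Genes were matched by symbol. Log2 ratios were computed without a pseudocount or filter in Python 3.11.15 with pandas 2.3.3 and numpy 2.4.6, and tested on simulated data. The design had provided for tests on sample values; group values allowed description only. The members and lists were chosen with earlier results of these data known. Named genes were all members and, from each of 7 lists, up to 5 genes past 2-fold with half-lives of 1 to 24 h, by size of the level ratio, and the 3 genes most like MDM2 and CDKN1A; others are marked as named after their values were seen. Some results are not reported here. Alternatives were a threshold of 0.5, half-lives of 1 to 24 h, the upper 75% by synthesis rate, centring on all genes or within 10 half-life deciles, the other table's young female values, leaving out genes at the half-life ceiling, and a pseudocount on synthesis rate.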

Additional observations from a re-analysis of the deposited data

How the results depend on the processing

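With group values only, replicates were not left out, and no paired analysis was possible because the tables hold no values per sample. A count was taken as moved past 1.5 times, and a log2 value past 0.15, the 95th percentile of the deviation between the 2 young female estimates. No member was at the half-life ceiling, so leaving such genes out has no bearing on the members. The sign of a member's ratio turned in 3 of 42 values after centring on all genes, 2 of 42 within half-life deciles and 1 of 42 with the other table's young female values.

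For the 7 members, a threshold of 0.5 gave counts of 1 for synthesis rate by age, and 5 for synthesis rate and 6 for level by sex. The share of all genes past 0.5 is not given, except for level ratios of −0.5 or lower in male cells (12.0%). Among all genes of the sex table, the lower quartile for synthesis rate was −0.60 and the upper quartile for half-life 0.53, both past 0.5. Counts at 0.5 for the lists below, and counts past 2-fold after either centring, also lack a share of all genes. At the 2-fold threshold, the count for synthesis rate by sex was 0 under either centring and 2 with the other young female values. That for half-life was 0 under either centring and in the upper 75% by synthesis rate, which left out CDKN2C and CDKN1C. That for level was 0 within deciles and 2 with the other young female values. The male median for synthesis rate was −0.62 centred on all genes and −0.50 within deciles. For half-life it was −0.064 centred on all genes, 0.038 within deciles and 0.043 in the upper 75%, and for level −0.36 within deciles.

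For the other p53 targets by age, the counts for synthesis rate, half-life and level were 8, 5 and 6 at 0.5, and within 1 to 24 h they were 1 and 1 for the first 2. By sex they were 18, 8 and 19 at 0.5, 0 for half-life within 1 to 24 h, and 1 for level in the upper 75%. For synthesis rate they were 3 under either centring and 4 with the pseudocount. Their male medians were −0.35 for synthesis rate and −0.17 for half-life (0.10 uncentred) after centring on all genes, and −0.32 for synthesis rate and −0.23 for level within deciles.

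Over all 7 lists together without the members, 106 genes were listed by age. Counts for the 3 parameters were 10, 4 and 3, against 7.52%, 3.53% and 4.12% of all genes. They were 21, 15 and 17 at 0.5, 4, 1 and 1 within 1 to 24 h, and 5 for level within deciles. Of all genes by sex, 8.37% were at least 2-fold lower and 3.78% at least 2-fold higher in synthesis rate. For half-life 5.62% were at least 2-fold longer-lived and 1.96% shorter-lived, and for level 1.61% were at least 2-fold lower. The list counts by sex were 16, 7 and 6. They were 56, 31 and 40 at 0.5, 10 for synthesis rate and 3 for half-life within 1 to 24 h, 4 for half-life in the upper 75%, 9 and 4 for synthesis rate and half-life within deciles, and 9 for synthesis rate with the pseudocount. The cause of these shifts was not tested.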
